A study of Mus musculus with 6 samples.

Results

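CC chemokines are the family of small secreted proteins, named Ccl with a number, whose first cysteines stand side by side. The genes described here are Ccl2, Ccl3, Ccl4, Ccl5, Ccl6, Ccl7, Ccl8, Ccl9, Ccl12 and Ccl24, and they were found as every probe of the non-normalized signal table whose platform gene symbol was one of these names. This gave 13 of the 45281 probes and 10 genes of the 19057 named on the array, with 2 probes each for Ccl4, Ccl7 and Ccl12. The RNA came from mouse macrophages that the study calls M2-like and defines by the surface proteins CD206, F4/80 and CD11b. All animals were C57BL/6 mice aged 10 weeks, and no transgene or drug is named for any of them. The 3 groups had 2 Illumina bead arrays each: cells from the heart after myocardial infarction (MI heart), from the intact heart and from the peritoneal cavity. The labels do not give the time after infarction, the number of animals behind an array or whether the arrays of a group came from separate animals, so the p-values below measure the spread between these arrays, which may be technical.

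CC chemokines bind G protein-coupled receptors on leukocytes and draw those cells toward their source. Ligands of the receptor Ccr2, such as Ccl2, Ccl7 and Ccl12, call monocytes out of the bone marrow and into tissue. Ccl3, Ccl4 and Ccl5 act on monocytes, macrophages and T cells, and Ccl24 acts on eosinophils through Ccr3. Macrophages are a major source of many of these proteins, and in the infarcted heart the Ccr2 ligands are known for bringing in monocytes.

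The arrays resembled each other in sensitivity: between 12433 and 14606 probes of an array were above background, which here means a detection p-value under 0.05. All 10 of the macrophage markers on the array, among them Adgre1 (which encodes F4/80), Itgam (CD11b) and Mrc1 (CD206), were above background on all 6 arrays. Mrc1 was much weaker in the peritoneal cells, with log2 signals of 8.63 and 9.06 in MI heart, 9.56 and 9.51 in intact heart, and 5.19 and 4.99 in peritoneal cavity. Itgam went the other way and was lowest in intact heart. Its log2 signals were 7.14 and 6.85 in MI heart, 6.31 and 5.64 in intact heart, and 8.15 and 7.95 in peritoneal cavity. The Adgre1 signals of MI heart overlapped those of both other groups, and those of intact heart lay under those of peritoneal cavity. In RNA from a bulk of cells, fewer cells that express a gene and less RNA of that gene per cell cannot be told apart.

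Of the 10 genes, 9 lie on mouse chromosome 11 and Ccl24 lies on chromosome 5. In the order of the RefSeq annotation, Ccl2, Ccl7, Ccl11, Ccl12, Ccl8 and Ccl1 follow each other on chromosome 11, and after 25 other protein-coding genes come Ccl5, Ccl9, Ccl6, Ccl3 and Ccl4. Ccl24 has Ccl26 as its neighbour. Promoter windows from 250 bases before to 50 bases after the start of the gene were present for 5 of the 10 genes in the RefSeq promoter table (build GRCm38.p6). The 4 printed here stand for the patterns described below. Ccl3 and Ccl12 were above background in both hearts and not in the peritoneal cavity, Ccl8 was above background in the MI heart only, and Ccl9 was above background at all sites. Ccl12 and Ccl8 are also direct neighbours on the plus strand, at chr11:82101595-82101894 and chr11:82114935-82115234, while Ccl3 (chr11:83649329-83649628) and Ccl9 (chr11:83578587-83578886) lie on the minus strand. Each is written 5′ to 3′ on the gene's own strand, and capitals mark matches to the motifs searched.
Ccl3: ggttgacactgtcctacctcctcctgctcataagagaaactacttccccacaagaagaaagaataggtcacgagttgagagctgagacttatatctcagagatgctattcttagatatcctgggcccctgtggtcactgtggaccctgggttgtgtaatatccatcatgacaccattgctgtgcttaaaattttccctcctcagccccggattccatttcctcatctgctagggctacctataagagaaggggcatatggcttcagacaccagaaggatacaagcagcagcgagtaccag
Ccl12: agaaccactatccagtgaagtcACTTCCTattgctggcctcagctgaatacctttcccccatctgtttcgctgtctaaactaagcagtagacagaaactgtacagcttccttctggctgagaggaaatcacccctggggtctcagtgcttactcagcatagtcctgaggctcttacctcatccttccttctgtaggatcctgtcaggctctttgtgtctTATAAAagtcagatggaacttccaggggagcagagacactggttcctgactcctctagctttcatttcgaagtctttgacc
Ccl8: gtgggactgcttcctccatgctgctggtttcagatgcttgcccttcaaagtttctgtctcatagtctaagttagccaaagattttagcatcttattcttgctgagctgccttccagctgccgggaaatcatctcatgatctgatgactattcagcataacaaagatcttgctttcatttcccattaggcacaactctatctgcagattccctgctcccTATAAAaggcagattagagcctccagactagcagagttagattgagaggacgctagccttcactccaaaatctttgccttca
Ccl9: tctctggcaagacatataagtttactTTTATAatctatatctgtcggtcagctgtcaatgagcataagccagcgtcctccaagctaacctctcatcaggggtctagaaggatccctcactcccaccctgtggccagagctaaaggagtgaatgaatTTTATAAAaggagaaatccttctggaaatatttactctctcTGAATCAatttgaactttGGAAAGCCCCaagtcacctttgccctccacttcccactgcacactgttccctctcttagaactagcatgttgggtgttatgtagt

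The 7 motifs were searched on both strands, and the share of all 32851 promoter windows that hold each one gives its background. They were the TATA box TATAAA (13.6% of windows), the core of the PU.1 motif AGGAAGT (9.35%), the AP-1 motif TGANTCA (7.81%), the STAT motif TTCNNNGAA (8.30%), the same motif with a gap of 4 bases (6.95%), the interferon-stimulated element (3.44%) and the NF-kB consensus (8.46%). The Ccl12 and Ccl8 windows each held a TATA box close to the start, at bases -31 to -26 in Ccl12 and -32 to -27 in Ccl8. Ccl12 also held a PU.1 core on the opposite strand at -228 to -222. The Ccl9 window held TATAAA 3 times, of which the matches at -94 to -89 and -92 to -87 overlap each other on opposite strands. It also held an AP-1 motif at -53 to -47 and an NF-kB consensus on the opposite strand at -35 to -26. The Ccl6 window, which is not printed, held a PU.1 core on the opposite strand at -48 to -42. None of the 7 motifs was found in the Ccl3 window, which says only that these letters are not in it. A match is a description of the letters and not of binding, which was not measured.

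The genes differed in where they were measured. Ccl2, Ccl3, Ccl4, Ccl7 and Ccl12 were strong in both hearts and at or near background in the peritoneal cavity. Ccl5 and Ccl8 were above background only in the MI heart, and Ccl24 ran the other way, highest in the peritoneal cavity and lowest in the MI heart. Ccl6 and Ccl9 were above background on all 6 arrays and passed the test in none of the comparisons. Counted by group, 10 of the 10 genes were above background on at least 1 array in MI heart, 8 in intact heart and 4 in peritoneal cavity. All 13 probes passed the filter, which asks for signal above background on both arrays of at least 1 group. Ccl5 and Ccl8 passed it through the MI heart alone, and Ccl2, Ccl3, Ccl4, Ccl7 and Ccl12 through the hearts alone. With 2 arrays a group, groups that do not overlap are common. In MI heart against intact heart 7 of the 10 genes did not overlap, beside 54% of all genes and unnamed probes tested. Against peritoneal cavity 9 of the 10 did not overlap in MI heart, beside 60.9%, and 9 in intact heart, beside 63.3%.

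**Figure D1:**
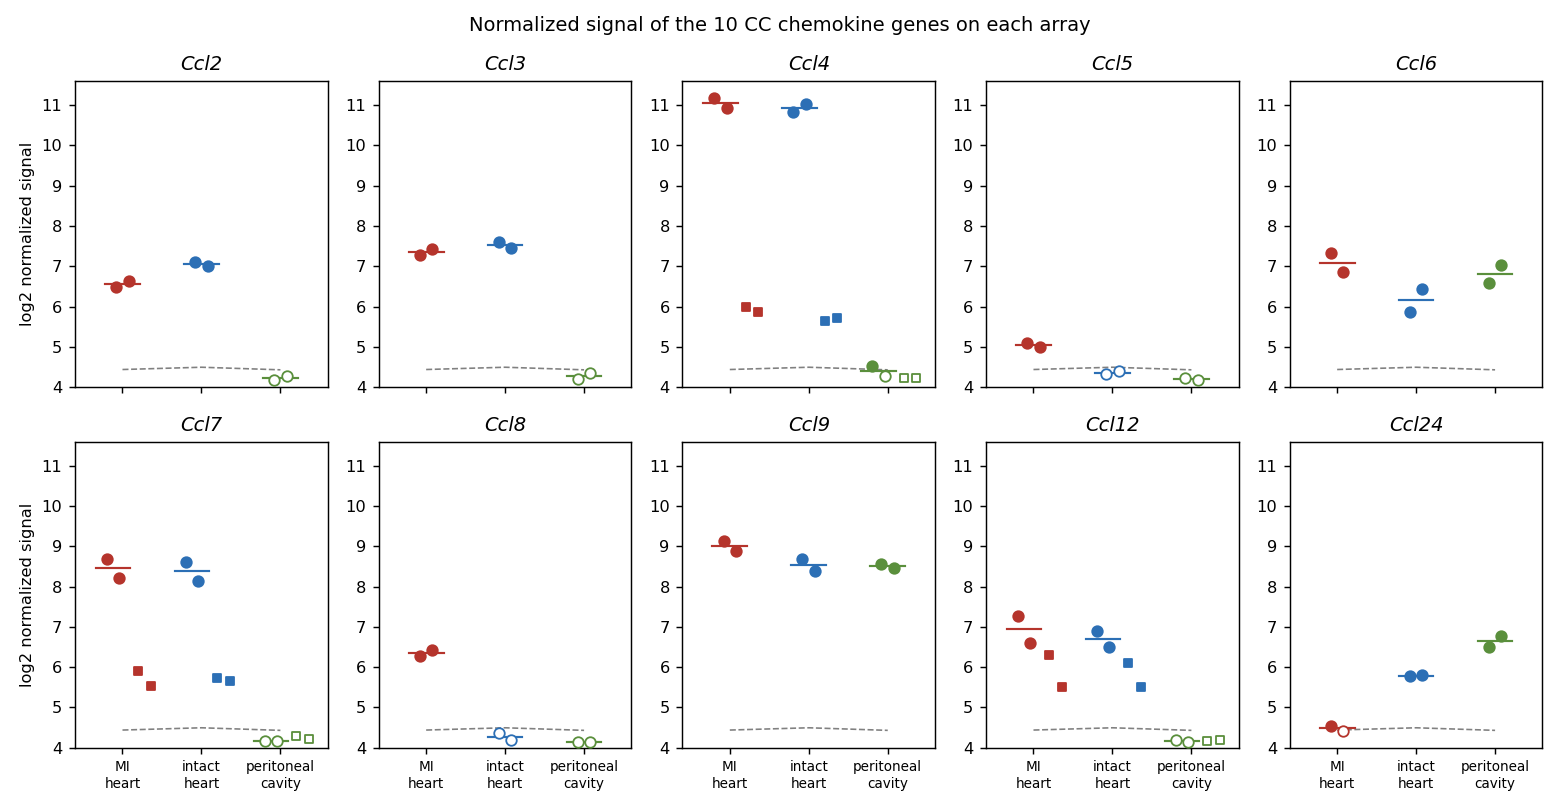
Normalized log2 signal (y axis) of each CC chemokine gene, one panel a gene, in MI heart, intact heart and peritoneal cavity. Circles are arrays (filled, above background; open, not) with a short line at the group mean, smaller squares are the second probe of Ccl4, Ccl7 and Ccl12, and the dashed line is the lowest signal above background. Ccl2, Ccl3, Ccl4, Ccl7 and Ccl12 stand high in both hearts, Ccl8 only in the MI heart, and Ccl24 is highest in the peritoneal cavity.

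Ccl2, the best known ligand of Ccr2, had log2 signals of 6.50 and 6.63 in MI heart, 7.12 and 7.02 in intact heart, and 4.18 and 4.27 in peritoneal cavity. Both peritoneal arrays were at background, and both intact heart arrays lay above both MI heart arrays. Such a gene has no measured level in the dim group, so its fold is given as a lower bound against the lowest signal that counted as above background there. Ccl2 was at least 4.38-fold higher in MI heart than in peritoneal cavity (difference 2.34 on the log2 scale, SE 0.16, adjusted p = 1.73e-05) and at least 6.21-fold higher in intact heart than in peritoneal cavity (difference 2.84, adjusted p = 5.47e-06). The adjusted p-values here and below are from limma's moderated test with Benjamini-Hochberg adjustment over 10533 tests, and a gene was called at a value under 0.05. Between MI heart and intact heart the difference of -0.51 ± 0.16 (SE, 95% interval -0.86 to -0.15) did not pass (adjusted p = 0.0783). It did pass with no background correction (difference -0.32, adjusted p = 0.0404), with an offset of 50 (adjusted p = 0.0396) and with the authors' own normalized values (adjusted p = 0.0409). In the other 12 of the 15 alternatives run on this gene it was not called, and over all 15 the difference ranged from -0.57 to -0.20.

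Ccl7, which attracts monocytes through Ccr2 as well as other receptors, had log2 signals of 8.69 and 8.22 in MI heart, 8.61 and 8.15 in intact heart, and 4.18 and 4.18 in peritoneal cavity. The heart groups overlapped each other and stood far above both peritoneal arrays, which were at background. The bound was at least 16.3-fold for MI heart over peritoneal cavity (difference 4.28, SE 0.22, adjusted p = 5.67e-06) and at least 15.4-fold for intact heart over peritoneal cavity (difference 4.20, adjusted p = 4.36e-06). MI heart and intact heart differed by 0.08 ± 0.22 (95% interval -0.42 to 0.57, adjusted p = 0.877), and the sign turned to -0.16 without MI heart replicate 1 and to -0.16 without intact heart replicate 2. The other Ccl7 probe was called in the same direction against peritoneal cavity with smaller bounds, at least 2.42-fold for MI heart and at least 2.40-fold for intact heart.

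Ccl12, a Ccr2 ligand that mice have and people lack, had log2 signals of 7.28 and 6.60 in MI heart, 6.89 and 6.49 in intact heart, and 4.20 and 4.15 in peritoneal cavity. It followed the same order as Ccl7: the hearts overlapped and the peritoneal arrays were at background. It was at least 5.69-fold higher in MI heart than in peritoneal cavity (difference 2.77, SE 0.24, adjusted p = 8.96e-05) and at least 4.79-fold higher in intact heart than in peritoneal cavity (difference 2.52, adjusted p = 0.000124). The difference between MI heart and intact heart was 0.25 ± 0.24 (95% interval -0.30 to 0.80, adjusted p = 0.579) and turned to -0.092 without MI heart replicate 1. On the other Ccl12 probe the bounds were at least 2.79-fold and at least 2.59-fold, both called.

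Ccl8, the direct neighbour of Ccl12, did not share that pattern. This chemokine, whose mouse protein is known to act through Ccr8, had log2 signals of 6.27 and 6.43 in MI heart, 4.36 and 4.19 in intact heart, and 4.15 and 4.14 in peritoneal cavity. Both MI heart arrays were well above background and the other 4 arrays were not. Ccl8 was at least 3.61-fold higher in MI heart than in intact heart (difference 2.07, SE 0.16, adjusted p = 0.000227) and at least 3.77-fold higher in MI heart than in peritoneal cavity (difference 2.20, adjusted p = 3.05e-05). Intact heart and peritoneal cavity have no fold between them, since neither was above background (difference 0.13, adjusted p = 0.58).

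Ccl3, also called macrophage inflammatory protein 1-alpha, binds Ccr1. Its log2 signals were 7.28 and 7.43 in MI heart, 7.61 and 7.44 in intact heart, and 4.21 and 4.35 in peritoneal cavity. Heart arrays were all far above the peritoneal arrays, which were at background, and the MI heart arrays lay just under the intact heart arrays. Bounds against peritoneal cavity were at least 7.61-fold for MI heart (difference 3.08, SE 0.16, adjusted p = 6.09e-06) and at least 8.54-fold for intact heart (difference 3.25, adjusted p = 3.62e-06). MI heart and intact heart differed by -0.17 ± 0.16 (95% interval -0.53 to 0.20, adjusted p = 0.582), and under median scaling by 0.15.

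Ccl4, macrophage inflammatory protein 1-beta, which attracts monocytes and T cells, had the largest difference among the 10 genes in both comparisons with peritoneal cavity. Before any processing its signals were 2652.9 and 1644.7 in MI heart, 1566.2 and 2195.6 in intact heart, and 84.6 and 83.8 in peritoneal cavity, where the array medians were 79.8 and 83.9. After normalization the log2 signals were 11.17 and 10.93 in MI heart, 10.83 and 11.02 in intact heart, and 4.51 and 4.27 in peritoneal cavity. The heart groups overlapped, and of the peritoneal arrays only replicate 1 was above background. The bounds were at least 95.9-fold for MI heart over peritoneal cavity (difference 6.66, SE 0.18, adjusted p = 4.80e-07) and at least 87.9-fold for intact heart over peritoneal cavity (difference 6.53, adjusted p = 2.21e-07). MI heart and intact heart differed by 0.12 ± 0.18 (95% interval -0.27 to 0.52, adjusted p = 0.718). The second Ccl4 probe was also called against peritoneal cavity, but its bounds were only at least 2.83-fold for MI heart and at least 2.38-fold for intact heart, so the size of the difference depends on the probe.

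Ccl5, known as RANTES and a ligand of Ccr1, was a weak gene on these arrays. Its log2 signals were 5.09 and 5.00 in MI heart, 4.32 and 4.40 in intact heart, and 4.23 and 4.19 in peritoneal cavity. The MI heart arrays were above background and the other 4 were not. It was at least 1.46-fold higher in MI heart than in intact heart (difference 0.68, SE 0.15, adjusted p = 0.027) and at least 1.53-fold higher in MI heart than in peritoneal cavity (difference 0.83, adjusted p = 0.00538). Against intact heart the call was lost in 9 of the 15 alternatives run on this gene, with adjusted p up to 0.163 without MI heart replicate 1. Against peritoneal cavity it was lost without MI heart replicate 1 alone (adjusted p = 0.0522).

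**Figure D2:**
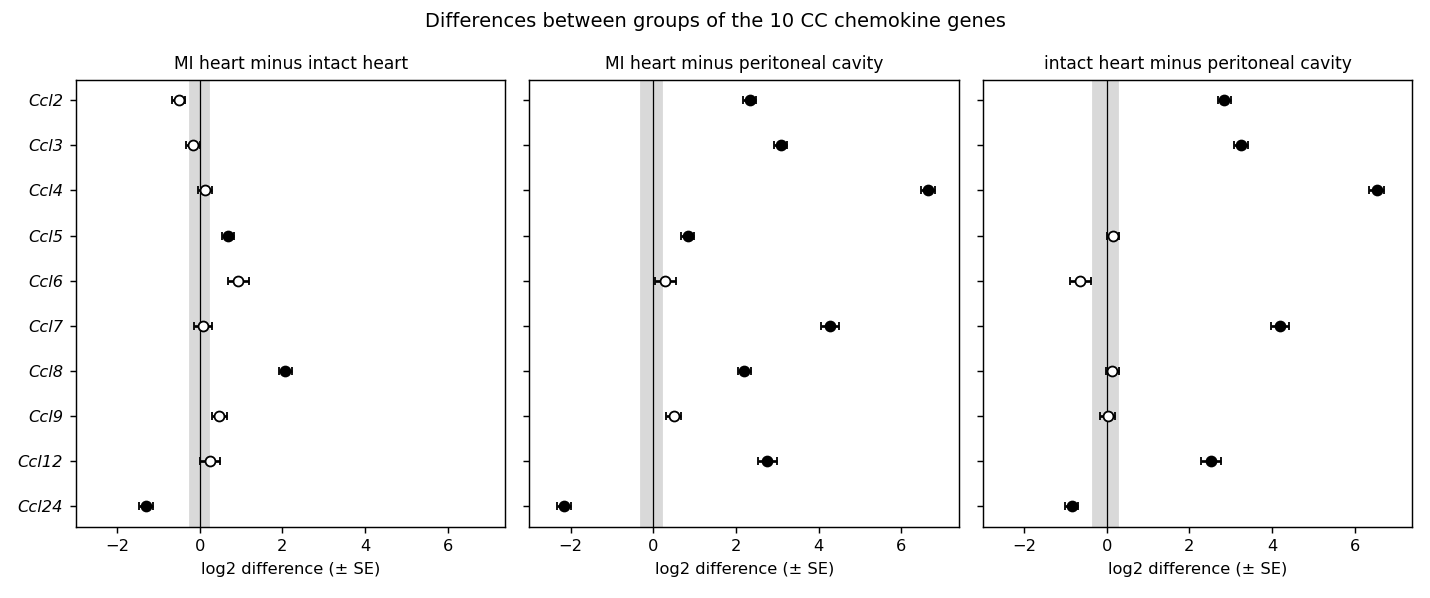
Log2 difference ± SE (x axis) of the 10 CC chemokine genes in each of the 3 comparisons; filled points passed limma's moderated test (adjusted p under 0.05), and the grey band spans the middle quartiles of all 10533 tests. The 5 genes strong in both hearts, Ccl4 with the largest difference, lie to the right of 0 in both comparisons with peritoneal cavity, and Ccl24 lies to the left of 0 in all 3.

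Ccl6 and Ccl9, ligands of Ccr1 that are known from rodents, were above background at every site. Ccl9 had log2 signals of 9.13 and 8.89 in MI heart, 8.69 and 8.38 in intact heart, and 8.57 and 8.45 in peritoneal cavity. Its MI heart arrays were the highest, while the intact heart and peritoneal arrays overlapped. It did not pass in MI heart against intact heart (difference 0.47, SE 0.18, 95% interval 0.07 to 0.87, adjusted p = 0.136) or against peritoneal cavity (difference 0.49, 95% interval 0.09 to 0.90, adjusted p = 0.0941). Intact heart and peritoneal cavity differed by 0.02 (95% interval -0.38 to 0.42, adjusted p = 0.943), with a sign that turned under median scaling (-0.26), without intact heart replicate 1 (-0.13) and without peritoneal cavity replicate 2 (-0.03).

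Ccl6 had log2 signals of 7.33 and 6.85 in MI heart, 5.87 and 6.44 in intact heart, and 6.58 and 7.02 in peritoneal cavity. The lowest arrays were those of the intact heart, and the MI heart and peritoneal arrays overlapped. MI heart against intact heart gave a difference of 0.93 ± 0.25 (95% interval 0.36 to 1.51), with an adjusted p of 0.0529 just above the threshold. It stayed uncalled in 13 of the 16 alternatives. It passed without intact heart replicate 2 (difference 1.22, adjusted p = 0.0316) and with a filter of detection p under 0.01 on all arrays (adjusted p = 0.0297). Intact heart was 0.65 lower than peritoneal cavity on the log2 scale (adjusted p = 0.0959), and this passed without intact heart replicate 2 (difference -0.93, adjusted p = 0.0401).

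Ccl24, or eotaxin-2, attracts eosinophils and is a gene that macrophages raise under interleukin 4. Its log2 signals were 4.54 and 4.42 in MI heart, 5.79 and 5.79 in intact heart, and 6.51 and 6.78 in peritoneal cavity. No groups overlapped, and of the MI heart arrays only replicate 1 was above background. Ccl24 was at least 2.47-fold lower in MI heart than in intact heart (difference -1.31, SE 0.16, adjusted p = 0.00248) and at least 4.46-fold lower in MI heart than in peritoneal cavity (difference -2.16, adjusted p = 4.27e-05). It was 1.81-fold lower in intact heart than in peritoneal cavity (difference -0.85, adjusted p = 0.00568), a call that was lost without peritoneal cavity replicate 2 (difference -0.72, adjusted p = 0.0536).

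By comparison, MI heart against intact heart called 2 of the 10 genes higher (Ccl5, Ccl8) and 1 lower (Ccl24), and 7 did not pass. Over all 10533 tests, 4.57% were called higher and 4.97% lower, or 9.54% in either direction. The median difference of the 10 genes was 0.19, beside -0.00 over all tests. MI heart against peritoneal cavity called 7 of the 10 genes higher and 1 lower, beside 9.17% called higher, 8.47% lower and 17.6% in either direction over all tests, with a median of 2.27 beside -0.05. Intact heart against peritoneal cavity called 5 of the 10 genes higher and 1 lower, beside 12.6% called higher, 12.9% lower and 25.4% in either direction over all tests, with a median of 1.33 beside -0.03. The comparisons share arrays, so their counts are not independent. Because genes at background passed the filter only through the group in which they were strong, the medians describe these genes and are no test. Arrays at background can also vary little: the SD of the peritoneal arrays was 0 for Ccl7 and 0.01 for Ccl8. Such values enter the spread that the 3 groups share. The SEs and adjusted p-values of genes with a group at background therefore partly reflect the background level. Sizes also depend on the background correction: with none, the difference for MI heart over peritoneal cavity was 4.69 for Ccl4, 2.41 for Ccl7 and 0.99 for Ccl2, all still called.

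**Figure D3:**
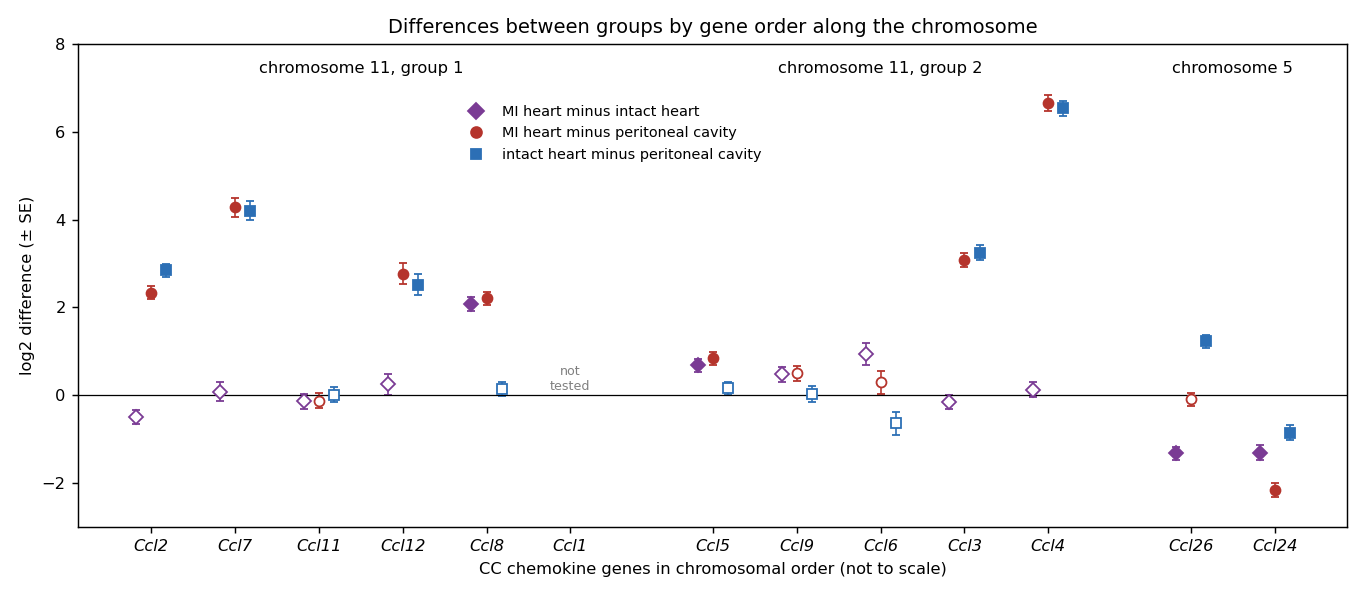
Log2 difference ± SE (y axis) of CC chemokine genes in chromosomal order (x axis, not to scale) for the 3 comparisons; filled points were called. The neighbours Ccl12 and Ccl8 differ in pattern, and so do Ccl6 and Ccl3, while Ccl3 and Ccl4 are both high in the hearts.

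Within the chromosome 11 groups, neighbours did not always share a pattern. In the first, Ccl2, Ccl7 and Ccl12 were called higher in both hearts than in peritoneal cavity, Ccl8 in the MI heart alone, and Ccl11, which passed the filter, was called in none of the comparisons. In the second, Ccl3 and Ccl4 were called in both hearts, Ccl5 in the MI heart alone, and Ccl9 and Ccl6 in none. By array profile, each centred on its mean over the 6 arrays, the closest pairs were Ccl5 with Ccl9 (root mean square difference 0.185) and Ccl2 with Ccl3 (0.306). The Ccl5 and Ccl9 profiles both moved little, so this closeness says little about a shared pattern.

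For each gene the 3 most similar named genes were picked by the same measure among genes with a range of at least 1 over the 6 arrays. For Ccl2 the closest was Folr2 (0.0771), the folate receptor known from resident heart macrophages. For Ccl3 it was P2ry6 (0.0968), a receptor for uridine diphosphate, followed by Cxcr4 (0.131) and H2-Ab1 (0.135). P2ry6 was above background at all sites and was called 3.22 ± 0.17 higher in MI heart and 3.43 ± 0.17 higher in intact heart than in peritoneal cavity on the log2 scale (adjusted p = 5.99e-06 for MI heart and 3.50e-06 for intact heart). For Ccl4, whose range was widest, the closest was Cd83 (0.556), a surface protein of activated dendritic cells and macrophages, then Il10 (1.00). For Ccl7 they were Slamf9 (0.202), H2-Eb1 (0.209) and Il1b (0.244), and for Ccl12 Lst1 (0.200), Ets2 (0.238) and Cxcl1 (0.244). For Ccl8 they were the interferon-inducible Ifi205 (0.183), then Tmsb10 (0.223) and Calhm6 (0.232), and for Ccl24 they were Alox5 (0.112), the 5-lipoxygenase of leukotriene synthesis, Txnip (0.128) and Apbb1 (0.183). Ccl5 had N4bp1, Sh2b2 and Arg2, Ccl6 had Psmb2, Adam10 and Cemip2, and Ccl9 had Ncf1, Lrp10 and Zfand3. Ccl5 and Ccl9 had ranges of 0.90 and 0.74, under the limit of 1, so they could be matched only to genes that moved more. All of these matches are descriptions over 6 arrays that also share their groups.

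Among the receptors for these ligands, 2 of the 9 CC receptor genes on the array passed the filter, Ccr2 and Ccr7, and neither was called in any comparison. Ccr2, the receptor of Ccl2, Ccl7 and Ccl12, had log2 signals of 4.49 and 4.59 in MI heart, 4.24 and 4.27 in intact heart, and 4.23 and 4.24 in peritoneal cavity. It was above background on the MI heart arrays alone. Ccr1, a receptor of Ccl3, Ccl5, Ccl6 and Ccl9, was above background on none of the 6 arrays. The only atypical receptor that passed the filter, of 5 on the array, was Ccrl2, which binds chemerin without signalling. Its log2 signals were 9.25 and 9.001 in MI heart, 7.67 and 7.60 in intact heart, and 5.48 and 5.32 in peritoneal cavity, so the sites did not overlap. It was called in all comparisons: higher by 1.49 ± 0.17 in MI heart than in intact heart (adjusted p = 0.00132), by 3.72 in MI heart than in peritoneal cavity (adjusted p = 2.82e-06) and by 2.23 in intact heart than in peritoneal cavity (adjusted p = 2.72e-05).

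**Figure D4:**
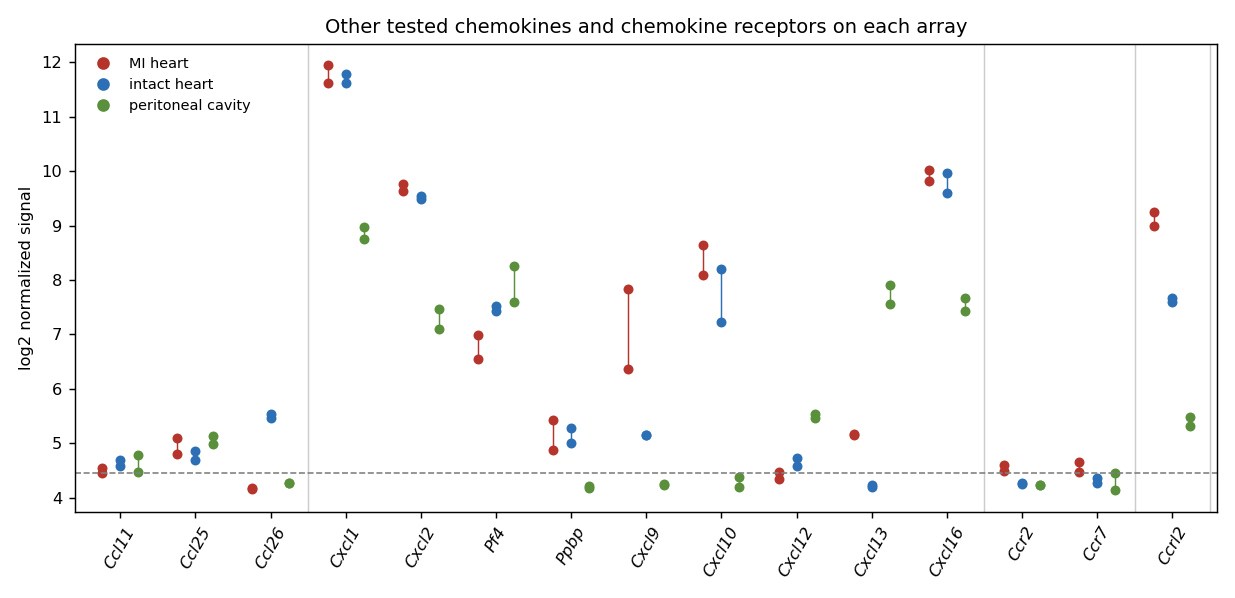
Normalized log2 signal (y axis) of other chemokine and receptor genes past the filter (x axis). Points are the 2 arrays of each group, joined by a line, and the dashed line is the mean over arrays of the lowest signal above background. Ccrl2 is highest in MI heart and lowest in peritoneal cavity, and Ccl26 stands clear of the dashed line in intact heart only.

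Of the other CC chemokines, 3 of 11 on the array passed the filter. Ccl26, the neighbour of Ccl24 and another Ccr3 ligand, had log2 signals of 4.19 and 4.16 in MI heart, 5.53 and 5.47 in intact heart, and 4.27 and 4.27 in peritoneal cavity. It was above background in intact heart alone, at least 2.09-fold lower in MI heart than in intact heart (adjusted p = 0.00141) and at least 2.10-fold higher in intact heart than in peritoneal cavity (adjusted p = 0.000495). Ccl11 and Ccl25 were called in none of the comparisons.

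The other chemokine families on the array (CXC, CX3C and XC) had 9 of 15 genes past the filter. In MI heart against intact heart 2 rose and 7 did not pass; against peritoneal cavity 6 rose and 3 fell. In intact heart against peritoneal cavity 5 rose, 2 fell and 2 did not pass. Their median differences were 0.14, 2.38 and 0.94 in these comparisons, beside the medians and the shares called of all tests given above. Cxcl9 and Cxcl10 are interferon-induced attractants of T cells. Cxcl9 rose in MI heart against intact heart by 1.96 ± 0.38 (adjusted p = 0.0154), with signals of 7.83 and 6.37 in MI heart against 5.15 and 5.14 in intact heart. Cxcl10 was at least 15.3-fold higher in MI heart than in peritoneal cavity (adjusted p = 4.05e-05) and at least 9.74-fold higher in intact heart than in peritoneal cavity (adjusted p = 8.66e-05). Cxcl1, Cxcl2 and Cxcl16 also rose in both hearts against peritoneal cavity. In MI heart they rose by 2.92, 2.43 and 2.38 on the log2 scale, and in intact heart by 2.84, 2.23 and 2.23. Cxcl13, an attractant of B cells made by peritoneal macrophages, ran the other way. It fell by 2.57 in MI heart against peritoneal cavity (adjusted p = 1.81e-05) and was at least 9.44-fold lower in intact heart than in peritoneal cavity (adjusted p = 3.50e-06), but was at least 1.59-fold higher in MI heart than in intact heart (adjusted p = 0.0119).

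Genes that act around the chemokine genes were counted from lists. Over all tests, 9.17% were called higher and 8.47% lower in MI heart against peritoneal cavity. These shares were 12.6% and 12.9% in intact heart against peritoneal cavity, and 4.57% and 4.97% in MI heart against intact heart. Of 24 transcription factors of the NF-kB, AP-1, IRF and related families and their regulators, 16 rose in MI heart and 18 in intact heart against peritoneal cavity. None of the others was called. Their median difference was 0.88 in MI heart and 1.21 in intact heart against peritoneal cavity, and -0.26 in MI heart against intact heart. In MI heart against intact heart 5 fell, among them Jun (difference -1.28, adjusted p = 0.00671), Atf3 (-1.00, adjusted p = 0.00611) and Fos (-0.90, adjusted p = 0.018), and 19 were not called. Fosb, an AP-1 subunit, was at background in peritoneal cavity and was at least 12.3-fold higher in MI heart (adjusted p = 2.82e-06) and at least 20.1-fold higher in intact heart (adjusted p = 1.41e-06) than there. Nfkbiz, an NF-kB cofactor, was 2.91 higher in MI heart and 3.48 higher in intact heart than in peritoneal cavity on the log2 scale (adjusted p = 6.36e-05 for MI heart and 1.71e-05 for intact heart).

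Of 11 factors of mRNA decay and receptor coupling, 4 rose and 1 fell in MI heart and 5 rose in intact heart against peritoneal cavity. Between MI heart and intact heart all 11 failed the test. These counts, and those of the proteases below, stand beside the shares of all tests called that are given above. Their median difference against peritoneal cavity was 0.04 in MI heart and 0.19 in intact heart, and it was -0.04 in MI heart against intact heart. Rgs1, a brake on chemokine receptor signalling, rose by 3.86 in MI heart and by 3.72 in intact heart against peritoneal cavity (adjusted p = 2.82e-06 for MI heart and 2.29e-06 for intact heart). Against peritoneal cavity Zc3h12a, an RNase that degrades cytokine mRNA, rose by 1.87 in MI heart and by 1.54 in intact heart, and Zfp36 (tristetraprolin) rose by 1.22 in MI heart and by 1.24 in intact heart. Of 10 proteases and glycan carriers that act on chemokines, 3 rose in MI heart against intact heart, with Mmp14 rising most (difference 2.54, SE 0.18, adjusted p = 0.000158). Against peritoneal cavity, 5 rose in MI heart, and 2 rose and 2 fell in intact heart, with Sdc4 rising by 2.96 in MI heart and by 2.99 in intact heart. The list's median difference was 0.31 in MI heart against intact heart, 0.57 in MI heart and 0.15 in intact heart against peritoneal cavity.

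Markers of other cells moved with some of these comparisons, and the shares of all tests called in each are given above. Of the 8 monocyte markers on the array, 8 were above background on each MI heart array, 2 on each intact heart array and 5 on each peritoneal array. Their summed linear signal was 1006 to 1155 in MI heart, 738 to 830 in intact heart and 1130 to 1214 in peritoneal cavity. In MI heart against intact heart 5 rose and 1 fell, with a median difference of 1.57 (adjusted p = 4.35e-05 for Plac8, at least 6.14-fold higher). In MI heart against peritoneal cavity 4 rose and 1 fell, with a median difference of 0.59. The summed signal was highest in peritoneal cavity, where Fn1 had log2 signals of 9.44 and 9.53, beside 7.91 and 7.73 in MI heart. Ly6c1, Ccr2 and Plac8 were above background on the MI heart arrays alone, as Ccl8 and Ccl5 were. Of these markers Plac8 was well above it there, with log2 signals of 7.22 and 7.01. Ly6c1 (4.55 and 4.64) and Ccr2 (4.49 and 4.59) lay close to the lowest signals above background on those arrays, 4.45 and 4.43. The other 5 markers were also above background on the peritoneal arrays. The part of the monocyte markers in the values of Ccl8 and Ccl5 was not tested.

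Of the 9 markers of large peritoneal macrophages, 8 and 5 were above background on the MI heart arrays, 3 and 5 on the intact heart arrays and 9 on each peritoneal array. Their summed signal was 897 to 1425 in MI heart, 421 to 444 in intact heart and 3765 to 3896 in peritoneal cavity. Ccl24 was also highest in peritoneal cavity, but it was lower in MI heart than in intact heart, where this sum was lowest. Of the 11 cardiomyocyte markers, 4 and 6 were above background in MI heart, 7 and 6 in intact heart and 2 and 4 in peritoneal cavity, with summed signals of 259 to 266 in MI heart, 361 to 395 in intact heart and 239 to 246 in peritoneal cavity. The part of either list in the values of the chemokines was not tested. Of the 11 T and NK cell, 10 endothelial and 11 eosinophil and mast cell markers, at most 3 of a list were above background on any array. Of the 2 T and NK cell markers tested, 1 was called lower in MI heart than in intact heart. In intact heart 1 was called higher than in peritoneal cavity. Prf1 had log2 signals of 5.15 and 5.17 in MI heart, 6.19 and 6.12 in intact heart, and 4.66 and 5.11 in peritoneal cavity. The part of the T and NK cell list in the values of the chemokines was not tested. The eosinophil and mast cell list had a summed signal of 362 to 517 in MI heart, 237 to 240 in intact heart and 1041 to 1085 in peritoneal cavity. Between the hearts its order was the reverse of that of Ccl24, which was lower in MI heart than in intact heart. Hdc, the histidine decarboxylase that makes histamine, was the list's only tested member. Its log2 signals were 8.35 and 7.43 in MI heart, 5.70 and 5.61 in intact heart, and 9.80 and 9.72 in peritoneal cavity. It rose in MI heart against intact heart (difference 2.24, adjusted p = 0.00187), and it fell against peritoneal cavity in MI heart (difference -1.87, adjusted p = 0.00139) and in intact heart (difference -4.11, adjusted p = 1.30e-05). Of the markers that define eosinophils, Siglecf, Prg2, Il5ra and Ccr3 were at background on all 6 arrays, and Epx was above background on peritoneal cavity replicate 1 alone. The part of this list in the values of Ccl24 was not tested.

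Single markers of neutrophils and fibroblasts also rose in the MI heart, where Ccl8 and Ccl5 were higher. Of the 11 neutrophil markers, 5 and 3 were above background in MI heart, 3 and 4 in intact heart and 2 and 3 in peritoneal cavity, with summed signals of 275 to 431 in MI heart, 258 to 264 in intact heart and 283 to 290 in peritoneal cavity. S100a9 had log2 signals of 7.24 and 5.42 in MI heart against 4.43 and 4.41 in intact heart, and was at least 3.56-fold higher in MI heart than in intact heart (adjusted p = 0.0358). It was also at least 3.72-fold higher in MI heart than in peritoneal cavity (adjusted p = 0.0159). Of the 4 neutrophil markers tested in that comparison, 1 rose and 1 fell. Csf3r went the other way from S100a9, with log2 signals of 5.28 and 5.46 in MI heart and 6.14 and 6.22 in peritoneal cavity. Mmp8, Ngp, Camp, Retnlg and Cxcr2 were above background on no array. Of the 10 fibroblast markers, 5 and 4 were above background in MI heart, 2 and 3 in intact heart and 1 on each array of peritoneal cavity, with summed signals of 231 to 242 in MI heart, 201 to 209 in intact heart and 193 to 194 in peritoneal cavity. Col1a1, a collagen chain, had log2 signals of 5.31 and 5.25 in MI heart against 4.28 and 4.22 in intact heart, and was at least 1.73-fold higher in MI heart than in intact heart (adjusted p = 0.00506). Col1a1 and Dcn, which encodes decorin, were both called higher in MI heart than in peritoneal cavity, at least 1.81-fold for Col1a1 (adjusted p = 0.00129) and at least 1.36-fold for Dcn (adjusted p = 0.0304). The part of these markers in the values of Ccl8 and Ccl5 was not tested. Of the 9 dendritic cell markers, at most 4 were above background on any array. Of the 5 B cell markers, 3 and 4 were above background in MI heart, 2 on each intact heart array, and 1 and 0 in peritoneal cavity. Among them 1 was called higher in each heart than in peritoneal cavity. Blnk had log2 signals of 5.34 and 5.96 in MI heart, 5.59 and 6.01 in intact heart, and 4.31 and 4.24 in peritoneal cavity. The part of the dendritic cell and B cell lists in the values of the chemokines was not tested.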

How the data were processed

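Per the file headers, the deposited table gives 45281 probes an intensity and a detection p-value on each of 6 arrays. Per the labels' protocols, RNA was extracted with Trizol, treated with DNase I and amplified as biotinylated cRNA. Scanner software and the calculation of detection p-values: not stated in the labels or headers. The deposited intensity values were linear, not normalized and not background-subtracted. The authors' series matrix holds intensity values brought to a common distribution, and was used as an alternative. Its replicate numbers of the MI heart and peritoneal arrays were swapped against those of the non-normalized table, whose numbers are used here.

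In limma 3.58.1 (R 4.3.3), the neqc steps were applied: background correction by normexp with control spots estimated by way of the detection p, an offset of 16, log2 and quantile normalization. The filter kept the 14817 probes that had a detection p under 0.05 on each array of 1 group or more. The probe with the highest mean stood for its gene, which gave 10533 tests, on 8244 named genes and 2289 probes without a name. The model of 3 group means (lmFit, eBayes) used all 6 arrays (3 residual and 5.79 prior degrees of freedom), and p-values were two-sided with Benjamini-Hochberg adjustment. The fit was tested on simulated data. Where the dim group was not above background on any array, or on 1 array with the other under the floor, the fold is a lower bound against the lowest normalized signal above background of each of its arrays, or against the gene's own signal where that is higher. Bounds leave out the variation among arrays.

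The genes, gene lists and marker lists were chosen with earlier results of these data known. Besides the 10 chemokine genes, the text names called members of each pathway list, at most 4 a comparison by size of difference. It also names called markers of some of the other cell lists, at most 2, and the 3 genes closest in profile to each chemokine. Ccr1, Ccr2, Ccr7, Ccl11, Ccl25, Cxcl2, Cxcl16, Ly6c1, Fn1, the sorting markers and markers at background are named outside that rule, with their values known. No set test was run. The precision is limited by the 2 arrays a group. Alternatives varied the background correction, offset, scaling, filter, probe choice, source table, arrays fitted, replicate block and the arrays left out.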

Additional observations from a re-analysis of the deposited data

How the results depend on the processing

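Of 17 called differences of the 10 genes, 14 kept their call and direction in every alternative run that tested them (16 were run in all), and the exceptions (Ccl5 against both other sites, Ccl24 in intact heart against peritoneal cavity) are given above with the 7 reversed values, all of differences that were not called: Ccl9 in intact heart against peritoneal cavity (-0.26 under median scaling, -0.13 without intact heart replicate 1, -0.03 without peritoneal cavity replicate 2), and in MI heart against intact heart Ccl12 without MI heart replicate 1 (-0.092, with a range of -0.092 to 0.59 over the arrays left out), Ccl7 without MI heart replicate 1 and without intact heart replicate 2 (-0.16 each, with a range of -0.16 to 0.31) and Ccl3 (0.15) under median scaling. In MI heart against intact heart, 1 of the 10 genes was called higher with no background correction, an offset of 50, the series matrix values or only the 2 groups compared, while 2 were called lower with no background correction, an offset of 50 or the series matrix values. With a detection p under 0.01 on all arrays only Ccl6 and Ccl9 were left to test: 1 was called higher and 0 lower in MI heart against intact heart, and 0 either way in the other comparisons by limma, where at an unadjusted p under 0.05 there were 1 higher in MI heart and 1 lower in intact heart against peritoneal cavity. Over all tests, MI heart against intact heart called 481 higher and 524 lower. Higher calls were 200 with no filter, 248 with the strict filter and 289 with only the 2 groups compared. Lower calls were 332 with no background correction, 165 under median scaling, 222 with no filter, 322 with the strict filter, 329 with the series matrix values and 305 with only the 2 groups compared. MI heart against peritoneal cavity called 966 higher and 892 lower, against 583 higher with no filter, 537 higher and 517 lower with the strict filter. Intact heart against peritoneal cavity called 1322 higher and 1355 lower, against 740 higher under median scaling, 771 higher and 757 lower with the strict filter. Median scaling moved the median of all tests by 0.12 in MI heart against intact heart and by -0.15 in intact heart against peritoneal cavity, and 78.7% of calls were then higher in the first (47.9% otherwise) and 27.8% in the second (49.4% otherwise). Leaving out 1 array at a time gave, for MI heart against intact heart, 1 to 3 of the 10 genes higher and 1 lower, with 134 to 470 tests higher and 100 to 497 lower. For MI heart against peritoneal cavity it gave 6 to 7 higher and 1 lower, with 537 to 1119 tests higher and 363 to 1050 lower. For intact heart against peritoneal cavity it gave 5 higher and 0 to 2 lower, with 756 to 1208 tests higher and 673 to 1184 lower; a lone array left in a group is taken to vary like the other groups. Among replicates of the same number, deviations correlated at 0.08 for MI heart and intact heart, 0.17 for MI heart and peritoneal cavity and 0.18 for intact heart and peritoneal cavity, so the numbers were not taken as pairing the arrays; with the replicate block, 628 tests were called higher and 692 lower in MI heart against intact heart, 1099 and 1049 in MI heart against peritoneal cavity and 1475 and 1556 in intact heart against peritoneal cavity, and Ccl6 was also called in MI heart against intact heart (adjusted p = 0.0374). The slide as a block was not run because no slide is given in the sources used here. The cause of these changes was not tested, except that a stricter filter or fewer arrays leaves less to test.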
